A study of Mus musculus with 12 samples.

Results

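The podocyte genes described here are Nphs1, Cd2ap, Magi2, Podxl, Ptpro, Clic5, Synpo and Wt1, 8 of the 41740 genes in the kidney count tables. They were picked by gene name as representatives of a glomerular cell type that lies beside the injured tubule. The rule used gene names only, but the genes were proposed with earlier results of these data known. Podocytes are the epithelial cells that cover the outside of the glomerular capillaries. Their interlocking foot processes are joined by the slit diaphragm, a junction built around the adhesion protein nephrin, and are held in shape by an actin cytoskeleton that is anchored to the glomerular basement membrane. Together these layers keep plasma proteins out of the urine, and damage to them is a known cause of proteinuria.

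Kidneys of 6 mice with rhabdomyolysis-induced acute kidney injury (RIAKI) and of 6 sham mice were compared at 24 h, with 1 library per mouse. All mice were labelled WT, and the methods of the study describe male C57BL/6NCrl animals, whose age is not given in the sources used here. Drinking water was withheld for 19 h in both groups. RIAKI mice then received 50% glycerol into the muscle of the left hind limb and sham mice received saline there, both under isoflurane and with Rimadyl (carprofen, a painkiller) at 5 mg per kg. Rhabdomyolysis is the breakdown of skeletal muscle, which releases myoglobin into the blood and to the kidney. RNA came from kidney tissue and not from isolated glomeruli, so podocytes were a minor source of it. In such bulk tissue, fewer cells of a type and less RNA per cell cannot be told apart.

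Libraries held 1579157 to 1911871 exon counts in RIAKI and 1673329 to 2073959 in sham. The share of mitochondrially encoded ribosomal RNA lay between 34.1% and 58.9% in RIAKI libraries and between 36.6% and 52.7% in sham libraries. That of hemoglobin transcripts lay between 0.112% and 0.442% in RIAKI and between 0.266% and 0.434% in sham (2-sided exact permutation test, n = 6 per group, p = 0.0346, adjusted p = 0.138 over the 4 library measures compared). The injury markers Havcr1 and Lcn2 were higher in RIAKI by 5.15 and 4.91 on the log2 scale, with no overlap between the groups. The 8 podocyte genes were all detected, most of them at low levels. CPM are counts per 1000000 library counts, with libraries scaled by the trimmed mean of M values (TMM).

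The assay was built to read transcripts near their 3′ end. The final 30 bases of the annotated transcripts are shown for the 3 podocyte genes that differed between the groups, because this is the end that the assay aims at. Sequences run 5′ to 3′ on the transcript strand (GENCODE M21, GRCm38), and capitals mark the hexamer AATAAA. This is the sequence of the common polyadenylation signal, but whether it is used here was not tested.
Nphs1-201, chr7:30487194-30487223, plus strand: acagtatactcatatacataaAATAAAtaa
Cd2ap-201, chr17:42792951-42792980, minus strand: aaattaatAATAAAagagaactgtgctgcc
Clic5-201, chr17:44280143-44280172, plus strand: caAATAAAgttggtttattttcaaatatta
The hexamer begins 9 bases before the annotated end in Nphs1, 22 in Cd2ap and 28 in Clic5. All 3 windows lie in the last exon, which is 385 bases long in Nphs1, 3419 in Cd2ap and 4959 in Clic5. Which of the annotated ends the reads came from cannot be read from gene counts. For Cd2ap, 276 reads in RIAKI and 105 in sham crossed an exon junction. Those reads lay upstream of the window shown, which is at the end of a last exon of 3419 bases.

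The 8 podocyte genes did not move together. Nphs1 and Cd2ap were higher in RIAKI, Clic5 was lower, and Podxl, Synpo, Wt1, Ptpro and Magi2 did not pass the test (quasi-likelihood test of edgeR, Benjamini-Hochberg adjusted p under 0.05 over 13536 genes). Over all genes tested, 36.3% were called, 17.4% as higher and 18.8% as lower, so 3 calls among 8 genes were near the background of this injury. The values of RIAKI and sham mice did not overlap for 3 of the 8 genes, beside 19.3% of all genes tested. The median log2 fold change was -0.07 over the 8 genes and -0.01 over all genes tested. All 8 passed the minimum of 10 counts over the 12 libraries, but Wt1 and Ptpro did so with 31 and 23 counts in all.

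**Figure D1:**
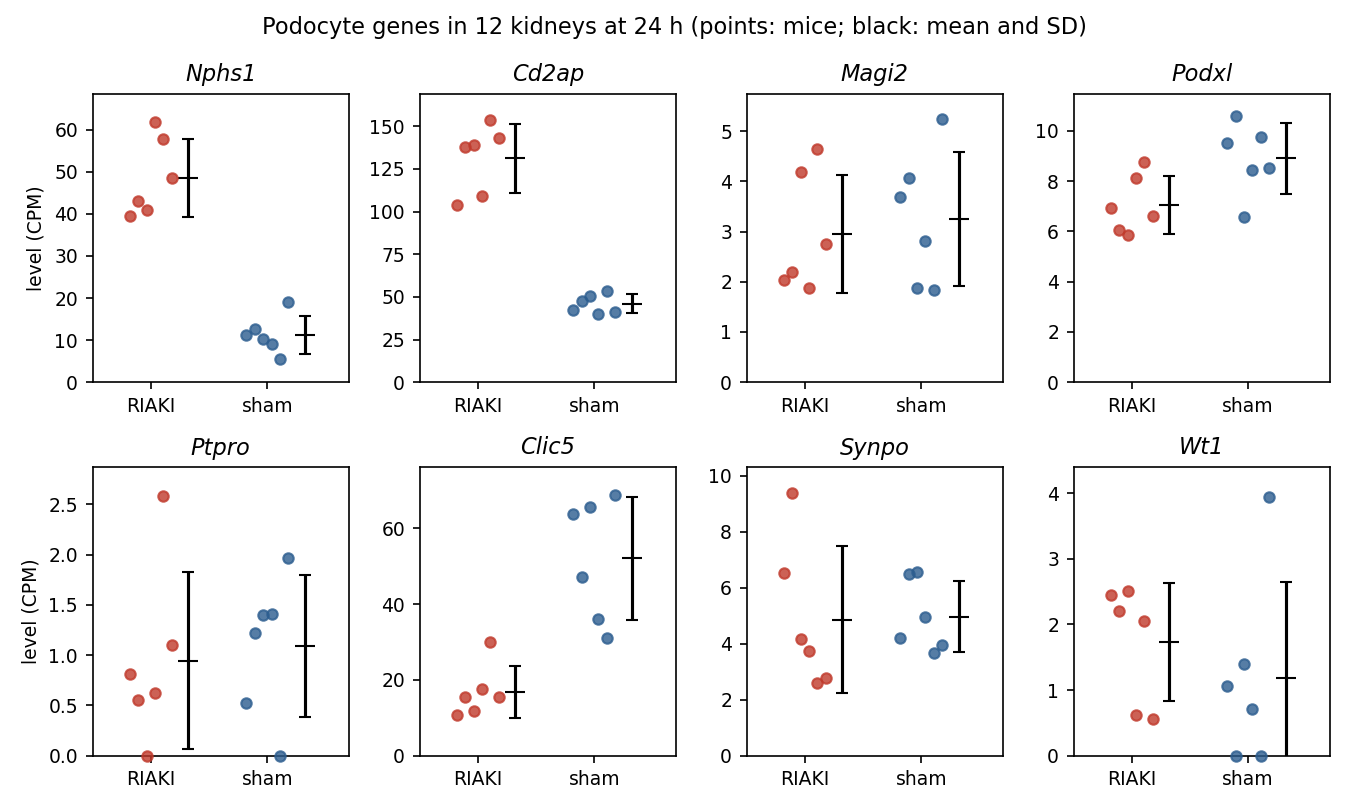
Levels of the 8 podocyte genes in CPM (vertical axis, from 0, scaled per gene) in 6 RIAKI mice (red) and 6 sham mice (blue). Points are mice, and the black bars give mean and SD. Nphs1 and Cd2ap of all RIAKI mice lie above all sham mice, Clic5 lies below, and the other 5 genes overlap.

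Among slit diaphragm genes, Nphs1 (ENSMUSG00000006649, chr7:30458315-30487223), which encodes nephrin, had 39.5, 43.0, 41.0, 61.9, 57.7 and 48.6 CPM in RIAKI replicates 1 to 6, against 11.1, 12.6, 10.3, 9.17, 5.49 and 19.0 CPM in sham replicates 1 to 6. Every RIAKI mouse lay above every sham mouse. The level was 48.6 ± 9.28 CPM in RIAKI and 11.3 ± 4.49 CPM in sham (SD, n = 6 each), from 523 and 125 counts. That is a 4.29-fold higher level in RIAKI (95% confidence interval 3.22 to 5.71), or a log2 fold change of 2.10 with a standard error of 0.20 (edgeR adjusted p = 1.04e-09). Nphs1 reached the highest log2 fold change of the 8 podocyte genes.

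Where the reads lay within the gene was compared for Nphs1 and Cd2ap. All exon reads of both genes mapped to a single place in the genome. None of the Nphs1 reads crossed an exon junction in either group, whereas 276 Cd2ap reads in RIAKI and 105 in sham did. Synpo and Wt1 had no junction reads either, but they had only 111 and 31 exon reads in all, beside 648 for Nphs1. The remaining podocyte genes had few, with 4 in RIAKI and 9 in sham for Clic5 and 2 and 3 for Podxl. Magi2 had 3 in RIAKI and 1 in sham, and Ptpro had 1 and 0. Introns of Nphs1 held 99 reads in RIAKI and 11 in sham, of which 12 and 5 mapped to a single place. The intron reads numbered 9 to 25 per mouse in RIAKI and 0 to 6 in sham, so they too did not overlap. On exon plus intron reads the log2 fold change of Nphs1 was 2.25. Nphs1 overlaps the antisense gene Nphs1os, which had 0 counts in all 12 libraries. The neighbouring nephrin relative Kirrel2 was also at 0 in all libraries. What part these reads had in the higher level was not tested.

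Cd2ap (ENSMUSG00000061665, chr17:42792951-42876665) encodes an adaptor that links nephrin to the actin cytoskeleton. Other kidney cells, tubule cells included, also express it. Its levels were 104, 138, 139, 109, 154 and 143 CPM in RIAKI replicates 1 to 6, against 42.2, 47.5, 50.6, 40.2, 53.7 and 41.4 CPM in sham replicates 1 to 6. The lowest RIAKI value was above the highest sham value. The means were 131 ± 19.7 CPM in RIAKI and 45.9 ± 5.52 CPM in sham (SD, n = 6 each), from 1404 and 513 counts. Cd2ap was thus 2.84-fold higher in RIAKI (95% confidence interval 2.32 to 3.48, log2 fold change 1.51 with a standard error of 0.14, edgeR adjusted p = 7.58e-10).

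Magi2 (ENSMUSG00000040003, chr5:19227036-20704792) encodes a scaffold protein that binds nephrin at the slit diaphragm. It had 2.04, 2.20, 4.18, 1.87, 4.64 and 2.76 CPM in RIAKI replicates 1 to 6, against 3.69, 4.06, 1.87, 2.82, 1.83 and 5.25 CPM in sham replicates 1 to 6. The groups overlapped over most of their range. The log2 fold change was -0.17 (95% confidence interval -0.94 to 0.61, edgeR adjusted p = 0.77). Exons gave only 31 counts in RIAKI and 36 in sham, while introns held 429 and 550 reads, or 93.3% and 93.9% of the reads of the gene. On exon plus intron reads the log2 fold change was -0.24 (edgeR adjusted p = 0.406).

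Of the genes of the apical surface, Podxl (ENSMUSG00000025608, chr6:31519488-31563981) encodes podocalyxin, a negatively charged sialoprotein that keeps foot processes apart and is also made by endothelial cells. Its levels were 6.93, 6.06, 5.86, 8.12, 8.76 and 6.62 CPM in RIAKI replicates 1 to 6, against 9.50, 10.6, 6.56, 8.46, 9.77 and 8.54 CPM in sham replicates 1 to 6. RIAKI replicates 1, 4, 5 and 6 lay within the sham range. The means were 7.06 ± 1.15 CPM in RIAKI and 8.90 ± 1.39 CPM in sham (SD, n = 6 each), a log2 fold change of -0.33 (95% confidence interval -0.79 to 0.14, edgeR adjusted p = 0.286). The interval leaves room for a level in RIAKI between 0.577 and 1.10 times that in sham.

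Ptpro (ENSMUSG00000030223, chr6:137252319-137463233) encodes a receptor tyrosine phosphatase of the apical foot process membrane, also known as GLEPP1. It was close to the detection limit, with 11 counts in RIAKI and 12 in sham. Its level ranged from 0 to 2.58 CPM in RIAKI and from 0 to 1.97 CPM in sham. RIAKI replicate 3 and sham replicate 5 had 0 counts, which allows a level of up to 2.51 and 1.83 CPM (3 counts, counting error only). The log2 fold change was -0.10 with an interval of -1.43 to 1.24 (95%, edgeR adjusted p = 0.927), so a difference in Ptpro was not detectable at this depth.

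Clic5 (ENSMUSG00000023959, chr17:44188584-44280172) encodes an intracellular chloride channel protein that is found with ezrin and podocalyxin beneath the foot process membrane and also occurs in glomerular endothelium. It had 10.6, 15.4, 11.7, 17.5, 29.9 and 15.5 CPM in RIAKI replicates 1 to 6, against 63.8, 47.1, 65.6, 36.0, 31.1 and 68.9 CPM in sham replicates 1 to 6. All RIAKI values were below all sham values, although RIAKI replicate 5 came close to sham replicate 5. The means were 16.8 ± 6.92 CPM in RIAKI and 52.1 ± 16.3 CPM in sham (SD, n = 6 each), from 182 and 584 counts. The level in RIAKI was 0.323 times that in sham (95% confidence interval 0.235 to 0.444), a log2 fold change of -1.63 with a standard error of 0.22 (edgeR adjusted p = 7.6e-07).

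Synpo, the gene of the actin-associated protein synaptopodin (ENSMUSG00000043079, chr18:60593973-60660142), had 6.52, 9.37, 4.18, 3.75, 2.58 and 2.76 CPM in RIAKI replicates 1 to 6, against 4.22, 6.50, 6.56, 4.94, 3.66 and 3.94 CPM in sham replicates 1 to 6. Both the highest and the lowest values were found in RIAKI mice. The log2 fold change was -0.04 (95% confidence interval -0.70 to 0.62, edgeR adjusted p = 0.944), and its sign turned under several of the alternative settings.

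Wt1 (ENSMUSG00000016458, chr2:105126529-105173616) encodes the transcription factor that maintains the podocyte programme. Its level ranged from 0.552 to 2.51 CPM in RIAKI and from 0 to 3.94 CPM in sham, from 19 and 12 counts. Sham replicates 2 and 5 had 0 counts, which allows up to 1.22 and 1.83 CPM. The log2 fold change was 0.63 with a wide interval of -0.67 to 1.94 (95%, edgeR adjusted p = 0.473). It was 1.38 without sham replicate 6, which had the highest Wt1 level, and 0.31 to 1.38 over all mice left out in turn, and Wt1 was not called in any of these. Introns held 70.8% of the Wt1 reads in RIAKI and 80.6% in sham, and on exon plus intron reads the log2 fold change was 0.12.

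**Figure D2:**
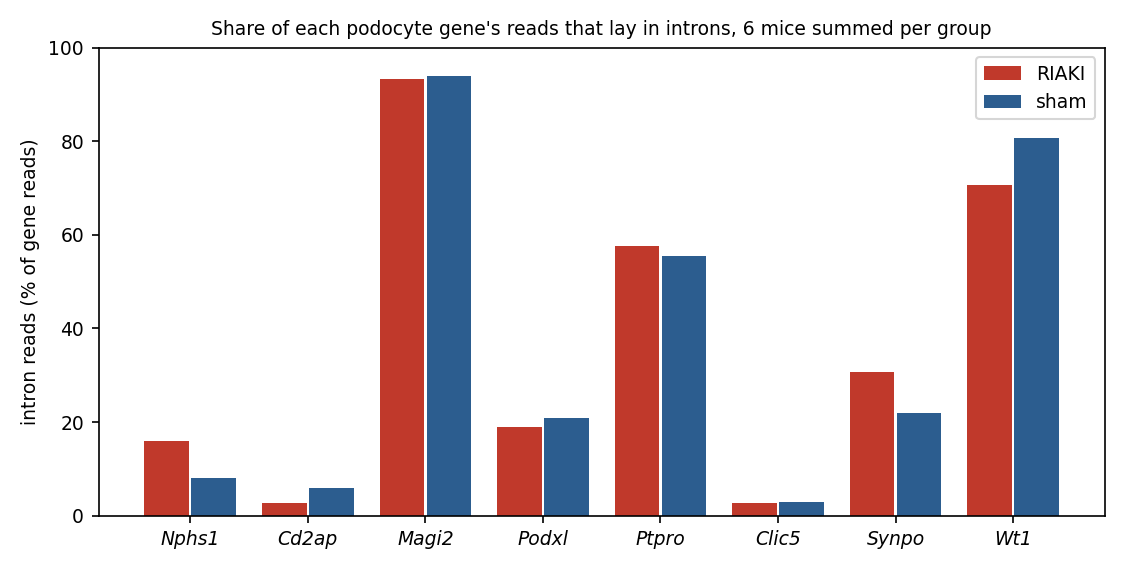
Share of the reads of each podocyte gene that lay in introns (vertical axis, % of exon plus intron reads, 6 mice summed per group), RIAKI in red and sham in blue. Most reads of Magi2, Wt1 and Ptpro were intronic in both groups, while Cd2ap and Clic5 had under 10% in introns.

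The 5 podocyte genes that were not called were also summed per library, since each alone had few counts. The sum of Podxl, Synpo, Wt1, Ptpro and Magi2 was 17.5 ± 2.83 CPM in RIAKI and 19.4 ± 3.08 CPM in sham (SD, n = 6 each). It ranged from 13.8 to 20.6 CPM in RIAKI and from 15.3 to 23.6 CPM in sham. These genes were summed because none was called, so the sum is a description and adds no evidence to that of the single genes.

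Within each library, the reads of the 8 genes were divided differently between the groups. Cd2ap made up 61.0% of their summed reads in RIAKI and 35.7% in sham, Nphs1 22.7% in RIAKI and 8.69% in sham, and Clic5 7.91% in RIAKI and 40.6% in sham. The Clic5 share ranged from 5.62% to 11.4% in RIAKI mice and from 29.5% to 46.9% in sham mice. These shares do not depend on how libraries were scaled to each other, but they describe reads and not molecules per cell. They add up to the whole, so more Nphs1 and Cd2ap reads lower every other share. The Clic5 share therefore does not measure the fall of Clic5 alone. Podxl, which was not called, likewise had shares that did not overlap. They were 2.8% to 4.0% in RIAKI mice and 4.55% to 9.25% in sham mice.

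**Figure D3:**
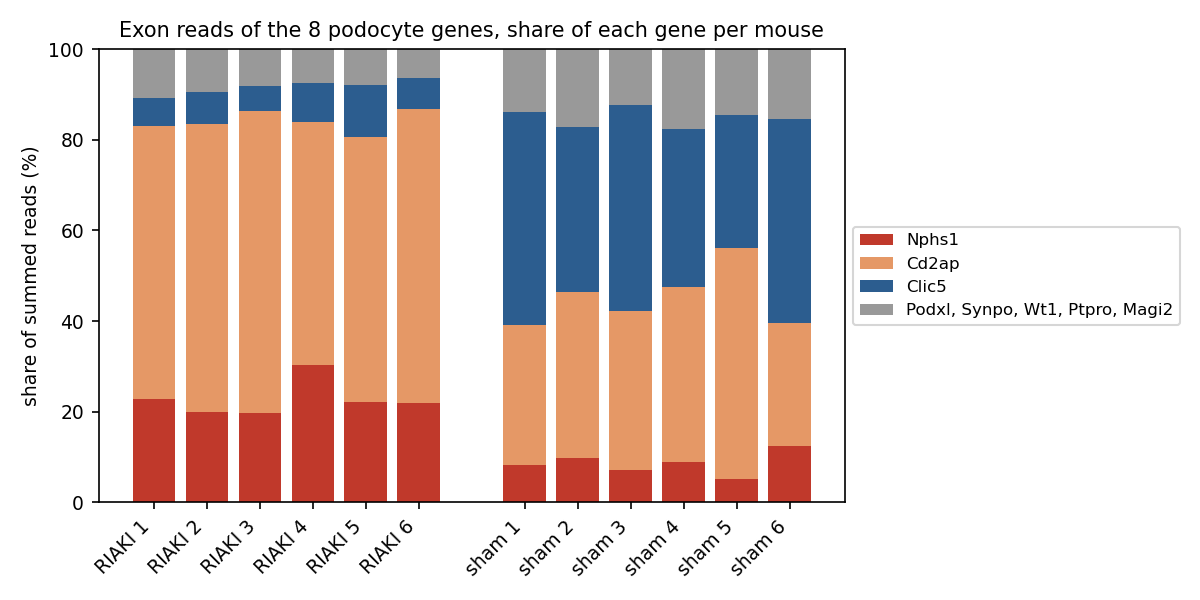
Division of the exon reads of the 8 podocyte genes within each library (vertical axis, % of their summed reads; horizontal axis, 6 RIAKI mice on the left and 6 sham mice on the right). Clic5 takes 5.62% to 11.4% of the reads in RIAKI mice and 29.5% to 46.9% in sham mice, and Nphs1 and Cd2ap take the larger shares in RIAKI. The shares of a library add up to the whole, so larger Nphs1 and Cd2ap shares lower the others.

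The called genes were also set against Podxl within each library, with 0.5 added to each count. These 3 ratios are a description, with no test, because the genes were taken for having been called and Podxl for not having been called. The log2 ratio of Nphs1 to Podxl was 2.73 ± 0.14 in RIAKI and 0.26 ± 0.64 in sham, and that of Cd2ap to Podxl was 4.16 ± 0.32 in RIAKI and 2.34 ± 0.30 in sham (SD, n = 6 each). Neither ratio overlapped between the groups. For Clic5 the ratio was 1.14 ± 0.38 in RIAKI and 2.46 ± 0.62 in sham, and single mice overlapped.

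Of 45 other podocyte genes, listed from textbook knowledge when earlier results of these data were known, 40 were tested, with 4 higher in RIAKI, 12 lower and 24 not called. Over all genes tested, 17.4% were higher and 18.8% lower. The median log2 fold change was -0.38 over the tested genes of this list and -0.01 over all genes tested. Kirrel2 was at 0, and Crb2, Anln, Trpc6 and Lmx1b were below the count minimum. The tested slit diaphragm genes Kirrel, Tjp1 and Fat1, which encode adhesion and junction proteins, had log2 fold changes of -0.32, 0.68 and 0.06 and were not called (edgeR adjusted p = 0.79, 0.144 and 0.897).

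The 4 genes that rose were Itga3, Pdpn, Ezr and Tspan8. Itga3, the integrin chain that binds podocytes to laminin, was at 7.34 ± 3.11 CPM in RIAKI and 2.17 ± 1.62 CPM in sham (log2 fold change 1.73, edgeR adjusted p = 0.000851), although single mice overlapped. Pdpn, which encodes the membrane glycoprotein podoplanin, was at 48.9 to 67.8 CPM in RIAKI and 18.3 to 33.5 CPM in sham (log2 fold change 1.38, edgeR adjusted p = 4.25e-08). Ezr, the gene of the membrane-to-actin linker ezrin, was higher by 1.05 and Tspan8, a tetraspanin, by 0.77 on the log2 scale (edgeR adjusted p = 1.75e-06 and 4.32e-05). All 4 genes are also expressed by cells other than podocytes.

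Genes of the glomerular basement membrane and its receptors were mostly lower, with 6 of 8 lower and only Itga3 higher, and a median of -0.92. The share of lower genes was 18.8% over all genes tested. Col4a3, Col4a4 and Col4a5 encode the collagen IV network of the mature glomerular basement membrane. Col4a3 ranged from 6.07 to 18.0 CPM in RIAKI mice and from 27.6 to 57.3 CPM in sham mice. Col4a4 was at 9.63 ± 3.78 CPM in RIAKI and 33.7 ± 5.93 CPM in sham (SD, n = 6 each). Neither overlapped between the groups, and the log2 fold changes were -1.63 and -1.80 (edgeR adjusted p = 6.26e-07 and 1.58e-07). Col4a5 fell by 1.13 (edgeR adjusted p = 0.0132), but its call was lost on exon plus intron reads (log2 fold change -0.32) and without sham replicate 2 (-0.93). Lamb2, the laminin beta chain of this membrane, had 12 counts in RIAKI and 30 in sham and an edgeR adjusted p of 0.0493 that most alternative settings lifted past the threshold (adjusted p from 0.0219 to 0.186 with single mice left out). Npnt and Dag1, the genes of the matrix protein nephronectin and of dystroglycan, had log2 fold changes of -0.72 and -0.64 (edgeR adjusted p = 0.0054 and 0.0191). The Dag1 call was lost without RIAKI replicate 4 or 6 or sham replicate 1, and on exon plus intron reads its log2 fold change was -0.08. Tubule cells also make several of these proteins.

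Arhgap24, which encodes a GTPase-activating protein that restrains podocyte motility, fell by 1.55 on the log2 scale (edgeR adjusted p = 2.09e-08). Its level was 15.8 ± 3.89 CPM in RIAKI and 45.7 ± 6.08 CPM in sham (SD, n = 6 each), and the groups did not overlap. The other 6 tested actin-related genes besides Ezr were not called, and Actn4, the actin cross-linker alpha-actinin 4, had a log2 fold change of 0.01 from 859 counts in RIAKI and 874 in sham. Of 5 tested transcription factors only Tcf21, a bHLH factor of podocytes and stromal cells, was called. Tcf21 was at 6.74 ± 3.11 CPM in RIAKI and 14.7 ± 2.61 CPM in sham (log2 fold change -1.08, edgeR adjusted p = 0.000845). Dach1, another podocyte transcription factor, had a log2 fold change of -0.91 and did not pass (edgeR adjusted p = 0.0914). The median of the 5 was -0.91.

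The remaining genes that fell were Bmp7, Mme, Mertk and Vegfa, which encode a growth factor, the peptidase neprilysin, a receptor tyrosine kinase and the endothelial growth factor VEGF-A. Bmp7 and Mme, which tubule cells also express, fell by 1.46 and 1.39 on the log2 scale (edgeR adjusted p = 0.00124 and 5.46e-05). On exon plus intron reads Mme had a log2 fold change of 0.10 and was not called (edgeR adjusted p = 0.716). Mertk fell by 1.15 (edgeR adjusted p = 0.0375), a call that was lost without any 1 of RIAKI replicates 2, 3, 4 and 6 or sham replicates 1, 2 and 6, where the adjusted p reached 0.174. Vegfa was at 14.6 ± 1.49 CPM in RIAKI and 23.1 ± 2.42 CPM in sham (log2 fold change -0.65, edgeR adjusted p = 0.00256), and with total counts as the only scaling it no longer passed (-0.58). Which kidney cells the reads of Arhgap24, Bmp7, Mme, Mertk and Vegfa came from was not tested. Tcf21, Npnt, Vegfa and Dag1 were named after their values were seen.

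**Figure D4:**
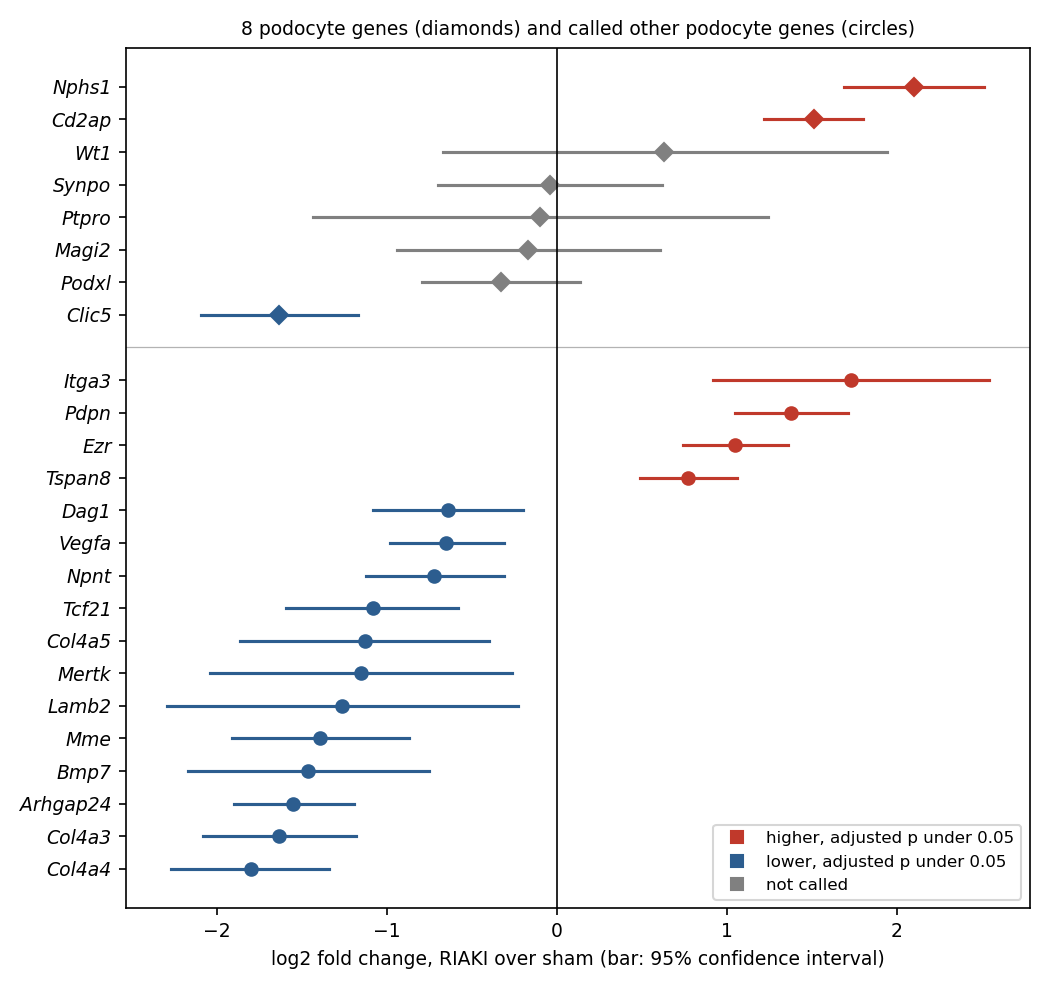
Log2 fold change of RIAKI over sham (horizontal axis, bars give 95% confidence intervals) for the 8 podocyte genes (diamonds) and for the called genes of the longer podocyte list (circles). Red genes were called higher, blue genes lower and grey genes were not called. Nphs1 and Cd2ap lie at 2.10 and 1.51, and Clic5 at -1.63.

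Other glomerular cell types were checked with lists of markers, many of which are also expressed outside the glomerulus. The background for these and the following lists was 17.4% higher and 18.8% lower over all genes tested. Of 16 markers listed for glomerular endothelium, 1 was higher, 2 were lower and 13 did not pass, with a median of -0.08. Their summed level was 133 to 168 CPM in RIAKI and 140 to 184 CPM in sham. Most of them, Kdr, Pecam1 and Cdh5 included, are also expressed in other kidney vessels. The list therefore does not measure glomerular endothelium alone. Ehd3, a glomerular endothelial gene, was at 6.98 ± 2.04 CPM in RIAKI and 12.1 ± 2.20 CPM in sham (log2 fold change -0.77, edgeR adjusted p = 0.0105), a call lost with total counts as the only scaling (-0.70). Sox17, an endothelial transcription factor, had a log2 fold change of -1.02 (edgeR adjusted p = 0.0447), a call lost without RIAKI replicate 1, 4, 5 or 6 or sham replicate 2, 5 or 6. Plat, the gene of tissue plasminogen activator, was higher by 0.63 (edgeR adjusted p = 0.0132).

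Of 14 mesangial and pericyte markers, 2 were higher and 4 lower, with a median of -0.01. The count of lower markers was 2 without RIAKI replicate 4 or RIAKI replicate 5, and 1 to 4 under the settings that kept all mice. Tagln and Acta2, smooth muscle cytoskeletal genes, were higher by 1.86 and 1.18 on the log2 scale (edgeR adjusted p = 1.21e-06 and 0.000813). Gata3 and the mesangial integrin gene Itga8 had log2 fold changes of -0.80 and -1.42 (edgeR adjusted p = 0.00393 and 0.0153). Itga8 did not pass on exon plus intron reads (-0.93). Which kidney cells the reads of Tagln, Acta2 and Gata3 came from was not tested. Of 9 tested markers of the parietal epithelium, 5 were higher and 4 were not called, with a median of 2.12 and Krt8 and Akap12 higher by 2.12 and 3.38 (edgeR adjusted p = 1.24e-12 and 7.18e-12). Injured tubule cells express Krt8, Krt18, Vcam1 and Cd44 of this list as well.

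Markers of the tubule were also counted. All 12 proximal tubule markers were lower in RIAKI, with a median of -2.03 and a summed level of 2790 to 6630 CPM in RIAKI and 8000 to 12800 CPM in sham. Of 10 markers of the thick ascending limb and distal tubule 8 were lower, of 10 markers of the collecting duct and medulla 7 were lower, and all 9 tubule injury markers were higher with a median of 4.45. Among 7 tested leukocyte markers 5 were higher and 1 lower, with a summed level of all 11 listed of 39.1 to 83.9 CPM in RIAKI and 13.7 to 24.9 CPM in sham. Their part in the levels of Nphs1, Cd2ap and Clic5 was not tested. Of 5 blood markers 4 were lower, with 982 to 4440 CPM in RIAKI and 2500 to 5140 CPM in sham. Of 8 skeletal muscle and fat markers, Acta1, Ckm, Myh4 and Tnnt3 were at 0 in every library, and the 3 that were tested had a median of -0.01 and were not called.

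**Figure D5:**
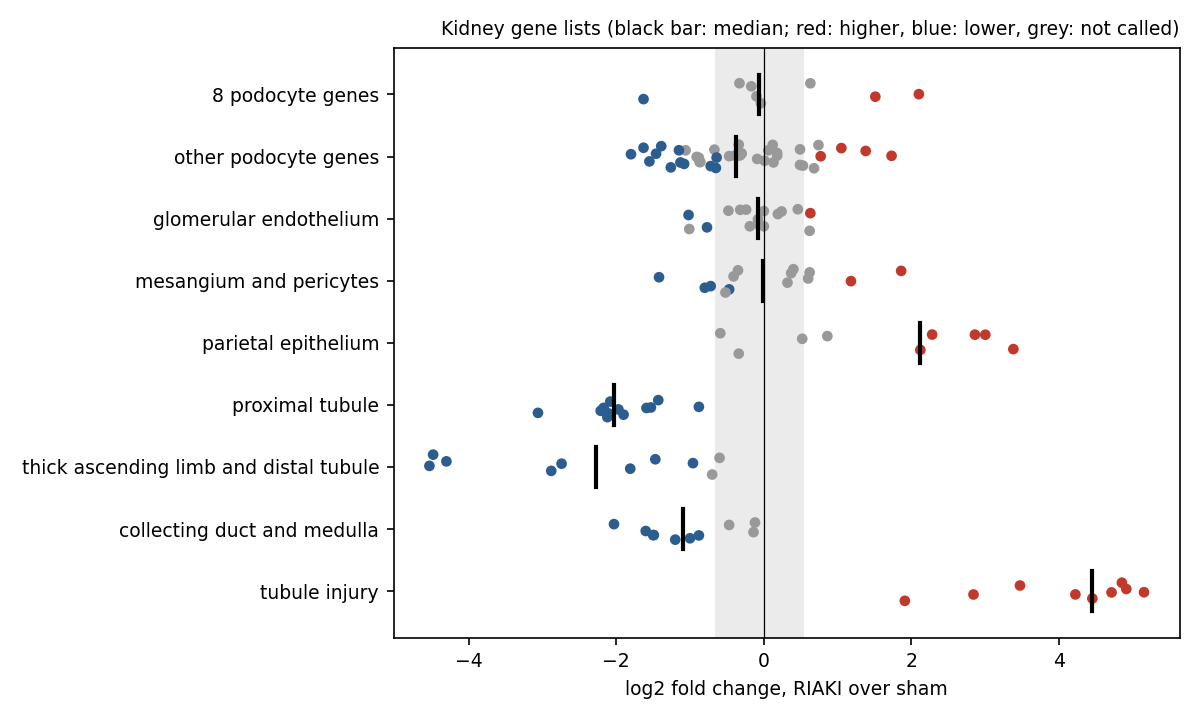
Log2 fold change of RIAKI over sham (horizontal axis) for the tested genes of 9 lists, 1 point per gene (red higher, blue lower, grey not called), with the median of each list as a black bar. The grey band runs from -0.65 to 0.53, the quartiles of all genes tested. The medians of the 8 podocyte genes (-0.07) and of the list named glomerular endothelium (-0.08) lie inside it, and that of the proximal tubule (-2.03) lies far below. Most genes of the endothelial list are also expressed in other kidney vessels.

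Variation between mice of 1 group was described with the deviations of log2 CPM from the group mean, over 12 libraries and for the 6 podocyte genes with at least 5 counts per library on average. The correlations are descriptions, with no test, since the points share library depth and scaling. Nphs1 and Clic5, which differed between the groups in opposite directions, deviated together within groups (r = 0.74), as did Nphs1 and Magi2 (r = 0.59) and Clic5 and Magi2 (r = 0.46). Nphs1 and Cd2ap, both higher in RIAKI, had r = -0.29, and Podxl and Synpo had r = -0.44.

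The genes whose deviations were most like the mean of these 6 were Lsm12, Ipo9, AA465934, Qrich1, Rfk, Morf4l1, Slc9a3r1 and Gpbp1l1, with r between 0.90 and 0.94 over 12 libraries and 7121 candidate genes. None of the genes on the podocyte list was among them. Candidates needed a mean of at least 10 counts per library, so listed genes with fewer counts, such as Kirrel and Myo1e, could not appear. With so few places among 7121 candidates, the absence of the other listed genes is not a result either. Of the 8, AA465934, Slc9a3r1 and Gpbp1l1 were called between the groups, with log2 fold changes of -1.57, -0.61 and -0.66 (edgeR adjusted p = 0.00119, 0.0222 and 0.0245). The calls of Slc9a3r1 and Gpbp1l1 were each lost without RIAKI replicate 1 or sham replicate 1, 2 or 6.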

How the data were processed

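Kidney RNA of 12 mice was measured, 6 per group, with 1 library each. The deposited values are counts of exon reads per gene, made by the authors with the QIAseq UPX 3′ kit, removal of duplicates by molecular identifier, and mapping to GRCm38 in CLC Genomics Workbench with Ensembl genes. Columns for uniquely mapped, intron and junction reads were used as well. Duplicate removal limits amplification bias, while low depth leaves Wt1 and Ptpro with few counts.

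Groups came from the labels. After TMM scaling, the 13536 genes that reached 10 counts over 12 libraries were fitted in edgeR (4.0.16, under R 4.3.3) by quasi-likelihood. Genes were called at p under 0.05 after adjustment by Benjamini-Hochberg. Single values were compared by exact permutation. Alternatives used the exact test of edgeR, DESeq2 1.42.0 and voom of limma 3.58.1, and other scalings, filters, read types and sample sets. Scripts were tested on simulated data. The podocyte genes and lists were chosen with earlier results of these data known, and a few listed genes are not reported here. Named genes were the 8 podocyte genes, up to 8 called genes per direction of the longer podocyte list, up to 2 per direction of other lists by smallest p, and the 8 genes most alike in within-group deviation.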

Additional observations from a re-analysis of the deposited data

Results flagged for a closer look

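Levels of 24 genes were screened in both groups for a single mouse far from the others of its group (Dixon's test at the 95% level). Of 48 groups 3 were picked out, where chance gives about 1 in 20. Clic5 in RIAKI replicate 5 was at 29.9 CPM, against 10.6 to 17.5 CPM in the other RIAKI mice, and stayed below all sham mice. Wt1 in sham replicate 6 was at 3.94 CPM from 6 counts, against 0 to 1.40 CPM in the other sham mice, and without it the log2 fold change of Wt1 was 1.38 in place of 0.63. Col4a4 in RIAKI replicate 6 was at 2.21 CPM from 4 counts, against 9.78 to 12.4 CPM in the other RIAKI mice.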

How the results depend on the processing

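Each result was recomputed under 27 alternatives, 12 of which left out 1 mouse. The calls of the 8 podocyte genes kept their side of the threshold under all alternatives in which they were tested. The log2 fold change ranged from 1.97 to 2.28 for Nphs1, from 1.46 to 1.60 for Cd2ap and from -1.88 to -1.48 for Clic5 with 1 mouse left out, and from 2.07 to 2.25, 1.48 to 1.55 and -1.65 to -1.60 under the others. Signs turned only for genes near 0 and for Mme (0.10 on exon plus intron reads). Synpo was at 0.04 with total counts as the only scaling, 0.11 when libraries were thinned to the shallowest, 0.14 on exon plus intron reads, and -0.32 to 0.11 with 1 mouse left out. Ptpro was at 0.08 when thinned and -0.63 to 0.10 with 1 mouse left out. Lsm12 was at -0.02 when thinned, and with 1 mouse left out Lsm12 ranged from -0.18 to 0.19, Qrich1 from -0.30 to 0.10 and Morf4l1 from -0.01 to 0.30. Same-numbered mice correlated at -0.17 to 0.32 in their deviations, and 3 of 12 were most like their own number. These values gave no clear pairing by replicate number, but with 6 mice per group they cannot exclude one. The replicate block gave 2398 genes higher and 2563 lower, against 2357 and 2551 without it, and left 2 podocyte genes higher and 1 lower. Over the alternatives the count of all genes called higher ranged from 1672 to 2478 and lower from 1849 to 2620. Depth limits Podxl, Synpo, Wt1, Ptpro and Magi2, whose intervals leave room for a change of over 1.5-fold.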
